A study of Mus musculus with 8 samples.

Results

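The mouse mitochondrial genome is a small circle that encodes 37 genes, and all 37 have a row in the deposited table of 49585 rows: 13 mRNAs, 2 rRNAs and 22 tRNAs. The rows are those whose Ensembl identifier maps to a symbol starting with mt-, a rule that uses no measured value. They are described here in mouse bone marrow leukemia cells of the type labelled MA9, commonly short for the MLL-AF9 fusion, which the labels do not spell out. The genotypes compared were Gata2 f/f, which carries floxed alleles of the transcription factor gene Gata2, and Gata2 KO (also written Gata2 -/-), with 4 libraries each. No source used here names the Cre line or other agent behind the deletion or the number of animals or clones, and nothing says that the libraries came from separate cultures, so p-values measure the spread between these libraries only. Cells of both genotypes were cultured in IMDM with 15% serum and the cytokines SCF at 20 ng/mL, IL-6 at 10 ng/mL and IL-3, and polyadenylated RNA was sequenced with paired reads of 65 bases.

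Library totals ran from 1610369 to 6237748 counts, and 3 counts, the upper limit behind a count of 0, are 0.481 to 1.86 CPM (counts scaled to a common library total). The 37 rows held 1036928 counts in the 8 libraries. Many nuclear rows of the table cannot be read as the genes they are named for. The 37 mitochondrial rows are read by their identifiers, and the table cannot prove that they hold those genes either. The Gata2 row had 4 counts in all 8 libraries, 2 in each genotype, so it could not check the labels. All 6 myeloid progenitor markers examined were under 1 CPM in the pooled counts, as were 21 of the 27 markers of any cell type, so the labelled cell type could not be checked either. For these reasons each mitochondrial row is given on 2 scales: as CPM of the whole library, and as a percentage of the summed counts of the 13 mitochondrial mRNA rows of the same library. In these bulk libraries, fewer cells of a type and less RNA per cell cannot be told apart.

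As background, mitochondrial DNA is transcribed from both strands into long precursors, which are cut mainly at the tRNAs that lie between the other genes. The 13 mRNAs encode core subunits of the respiratory chain: 7 of complex I (NADH dehydrogenase), 1 of complex III (cytochrome b), 3 of complex IV (cytochrome c oxidase) and 2 of complex V (ATP synthase). The 2 rRNAs form the core of the mitochondrial ribosome, and the 22 tRNAs decode its messages. Parts of mitochondrial DNA have also been copied into nuclear chromosomes during evolution, and such copies can be identical in sequence to the mitochondrial gene.

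Several of the 13 mRNA genes have annotated nuclear copies, and the sequences below show how close these are. Coordinates are those of GENCODE M21 on GRCm38. On chromosome 1, a run of unprocessed pseudogenes on the minus strand, from Gm28439 at its start to Gm29216 at its end (24611535 to 24616197), holds copies of part of mt-Co1 and of mt-Co2, mt-Atp6, mt-Co3, mt-Nd3, mt-Nd4l and part of mt-Nd4, in the order these genes have on the mitochondrial genome when the minus strand is read. The first 65 bases of mt-Atp6, the length of 1 read, occur unchanged in its copy Gm10925, so no capitals mark a difference:
mt-Atp6, chrM:7927-7991, plus strand: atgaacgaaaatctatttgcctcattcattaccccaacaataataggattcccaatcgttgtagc
Gm10925, chr1:24614587-24614651, minus strand: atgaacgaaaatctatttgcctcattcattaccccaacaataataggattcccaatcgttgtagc

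The alignments of mt-Nd4l with Gm10222 (294 bases), mt-Nd3 with Gm28438 (342 bases), mt-Co3 with Gm28437 (783 bases), mt-Atp6 with Gm10925 (678 bases) and mt-Co2 with Gm28661 (681 bases) held 0 substitutions and 0 gaps. The first 876 bases of mt-Nd4 were likewise identical to Gm28439. By contrast, mt-Co1 has copies that differ from it. Over the last 483 bases, mt-Co1 differed from Gm29216 by the single substitution A1066T, counted from the first base of the mitochondrial gene. Over its whole 1545 bases it differed from Gm13340 on chromosome 2 by 37 substitutions. Bases that differ within these windows are in capitals:
mt-Co1, chrM:6390-6454, plus strand: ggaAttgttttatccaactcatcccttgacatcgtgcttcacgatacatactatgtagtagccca
Gm29216, chr1:24616124-24616188, minus strand: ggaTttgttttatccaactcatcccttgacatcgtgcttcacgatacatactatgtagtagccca
mt-Co1, chrM:5328-5392, plus strand: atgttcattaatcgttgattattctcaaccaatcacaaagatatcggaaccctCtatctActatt
Gm13340, chr2:22589583-22589647, minus strand: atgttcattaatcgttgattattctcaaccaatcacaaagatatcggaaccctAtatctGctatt

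A copy of the end of mt-Nd2, Gm13339 on chromosome 2, differed from it by 17 substitutions in 510 bases, and 1 of them lies in this window, in capitals:
mt-Nd2, chrM:4442-4506, plus strand: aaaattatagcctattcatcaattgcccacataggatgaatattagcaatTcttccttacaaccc
Gm13339, chr2:22590469-22590533, minus strand: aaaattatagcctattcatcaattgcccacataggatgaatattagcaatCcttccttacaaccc

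The 13 mRNA rows fell into a high and a low set, and the low set held mt-Atp8 and the 5 rows with nearly all of their sequence repeated elsewhere. The share of a gene's 65-base windows that also occur in another annotated transcript, on either strand, was 97.9% for mt-Nd3, 98.7% for mt-Nd4l, 99.5% for mt-Co2, 99.5% for mt-Atp6 and 99.9% for mt-Co3. These 5 rows together held 996 counts, 0.113% of the mitochondrial mRNA counts, at mean levels of 1.90 to 22.5 CPM per kilobase. Another 5 rows, mt-Nd1, mt-Nd2, mt-Nd5, mt-Nd6 and mt-Cytb, shared at most 6.67% of their windows and held 441762 counts (50.3%) at 1298 to 6307 CPM per kilobase. The lowest of them was 57.6 times as high per kilobase as the highest of the 5 rows repeated over nearly their whole length. The 2 rows of intermediate sharing, mt-Co1 with 44.3% of its windows shared and mt-Nd4 with 61.8%, were high and held 435403 counts (49.6%). The level of mt-Co1 was 596 times that of mt-Co2 per kilobase, and both encode subunits of the same enzyme. No source used here says how reads that match several places were counted, and the part of this in the levels was not tested. Whether the low rows hold the genes they are named for was not tested either.

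The remaining row, mt-Atp8, was low without a shared 65-base window: 28 counts in 8 libraries, 5.22 CPM per kilobase. Of its 174 windows of 31 bases, 13 were shared. The part of mt-Atp8 outside mt-Atp6 lies in the 230 bases between mt-Co2 and mt-Atp6 that also hold mt-Tk. The corresponding gap on chromosome 1, between Gm10925 and Gm28661 (24614652 to 24614884), is 233 bases long and holds 0 annotated genes, so a copy there would not appear among annotated transcripts. The genome sequence of that gap was not used here. The 3′ part of mt-Atp8 overlaps mt-Atp6 by 43 bases, shown with the start codon of mt-Atp6 and the stop codon of mt-Atp8 in capitals:
mt-Atp8 and mt-Atp6, chrM:7927-7969, plus strand: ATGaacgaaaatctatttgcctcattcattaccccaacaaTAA

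A second overlapping pair, mt-Nd4l and mt-Nd4, shares the 7 bases ATGcTAA at chrM:10167-10173. As background, each overlapping pair is carried on a single mature mRNA. The rows of the second pair stood at 1.90 CPM per kilobase for mt-Nd4l and 897 for mt-Nd4. The rows named for the nuclear copies were low as well: Gm10925 held 42 counts in 8 libraries and each of the other annotated copies named above held 0 or 1.

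**Figure D1:**
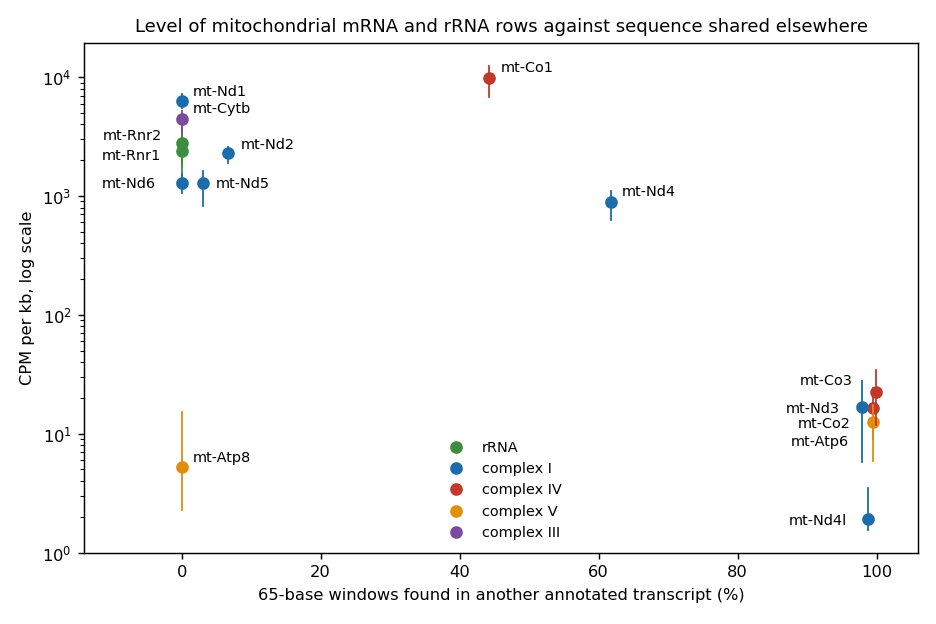
Mean level of each mitochondrial mRNA and rRNA row over the 8 libraries (CPM per kilobase, log axis) against the share of its 65-base windows found in another annotated transcript (%), coloured by class; vertical lines run from the lowest library above 0 to the highest. The 5 rows at 97.9% or more lie at or below 22.5 CPM per kilobase, mt-Co1 and mt-Nd4 lie high with 44.3% and 61.8% of windows shared, and mt-Atp8 is low with none.

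In order of level, mt-Co1 stood at 9863 CPM per kilobase as a mean of 8 libraries, followed by mt-Nd1 at 6307, mt-Cytb at 4481, mt-Rnr2 at 2769.7, mt-Rnr1 at 2399, mt-Nd2 at 2297, mt-Tp at 2071, mt-Nd5 at 1299, mt-Nd6 at 1298 and mt-Nd4 at 897. The first 4 of these kept their order in each of the 8 libraries. Several neighbours further down did not differ beyond the spread of the libraries: mt-Rnr1 was above mt-Nd2 in 6 of 8, mt-Nd2 above mt-Tp in 5 of 8, and mt-Nd5 above mt-Nd6 in 5 of 8. The only mRNA gene on the minus strand, mt-Nd6, thus stood near mt-Nd5, a plus-strand gene whose end overlaps it. Libraries of the kit used keep no record of strand, so reads from the strand opposite mt-Nd6 cannot be told apart from its own. The order given is one of counts per full gene length in libraries of polyadenylated RNA. It is not an order of abundance in the cell across mRNA, rRNA and tRNA. The rows mt-Co1 and mt-Nd4 have 44.3% and 61.8% of their windows shared, and the part of this in their rank was not tested.

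Between genotypes, the summed mitochondrial mRNA counts took a larger part of every Gata2 KO library than of any Gata2 f/f library. The Gata2 f/f libraries, in order of replicate number, had 2.46%, 3.21%, 2.86% and 3.40%, and the Gata2 KO libraries had 3.70%, 3.42%, 3.87% and 3.57%, or 2.98% ± 0.413 against 3.64% ± 0.194 (SD, n = 4 each). The genotypes did not overlap, but the highest Gata2 f/f library and the lowest Gata2 KO library were 3.40% and 3.42%. Taken by replicate number, the log2 ratio of Gata2 KO to Gata2 f/f was 0.59, 0.092, 0.44 and 0.071. The difference was therefore carried mainly by replicates 1 and 3. By complex, only complex IV, nearly all mt-Co1, kept the genotypes apart, at 1.05% to 1.48% of the library in Gata2 f/f and 1.59% to 1.92% in Gata2 KO. Complex I overlapped, at 1.02% to 1.39% and 1.25% to 1.40%, as did complex III, at 0.389% to 0.535% and 0.497% to 0.597%, and complex V. Each complex was higher in Gata2 KO in all 4 same-numbered pairs.

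Of the 37 rows, 14 passed the filter on low counts and were tested with it: 11 mRNAs, both rRNAs and mt-Tp. The other 23, among them mt-Atp8 and mt-Nd4l, did not pass it. In the edgeR quasi-likelihood test with genotype alone, 0 of the 14 rows passed an adjusted p of 0.05, where 12.5% of the 6580 rows tested in the whole table passed in either direction, and 5 had an unadjusted p under 0.05. DESeq2 called 2, mt-Co1 (adjusted p = 0.0294) and mt-Nd6 (adjusted p = 0.0475), beside 14.3% of all rows. Without the filter edgeR called 2, mt-Co1 (adjusted p = 0.0222) and mt-Rnr2 (adjusted p = 0.0394), beside 3.15% of the rows then tested. The counts of mt-Rnr2 were the same in both fits, but its standard error was 0.12 without the filter and 0.26 with it. In CPM, 9 of the 14 rows were higher in Gata2 KO in all 4 same-numbered pairs, beside 22.9% of all rows tested. Of the fitted changes 13 were positive, and the median of the 11 mRNA rows was 0.29 on the log2 scale against -0.011 for all rows tested.

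With the replicate number as a block, 8 of the 14 rows passed, all higher in Gata2 KO: mt-Rnr1, mt-Rnr2, mt-Nd4, mt-Nd5, mt-Nd6, mt-Cytb, mt-Co1 and mt-Atp6. In that fit 35.5% of all rows tested passed, 18.8% as higher and 16.7% as lower. Same-numbered libraries of the 2 genotypes deviated together in each of the 4 pairs, but some differently numbered libraries did so nearly as much, as given with the processing. The block changed the errors more than the sizes, the median of the mRNA rows being 0.30 with it.

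**Figure D2:**
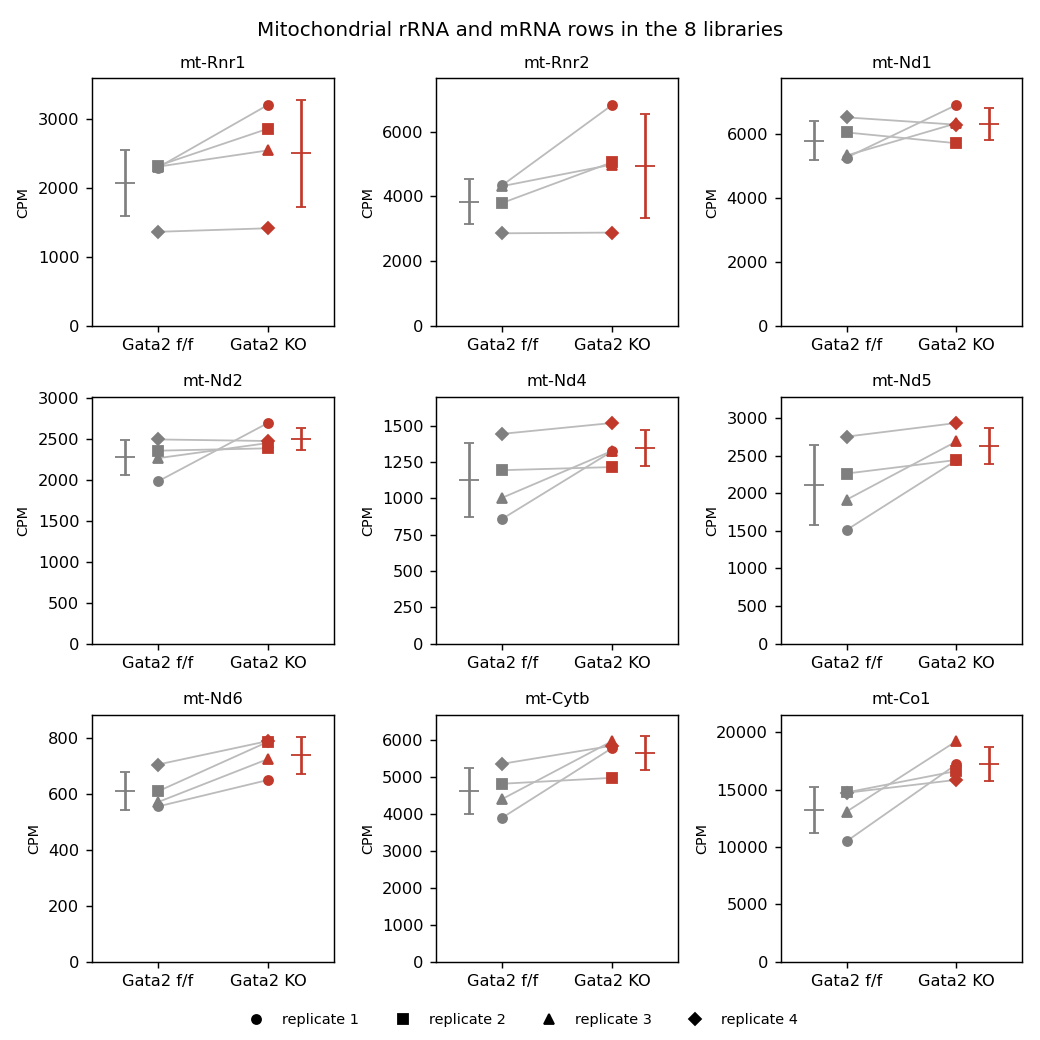
CPM of the rRNA rows and of the 7 mRNA rows with the most counts in each library (y axes from 0), with grey lines joining libraries of the same replicate number; bars beside the points are the mean ± SD of 4 libraries. For mt-Co1 all 4 Gata2 KO libraries lie above all Gata2 f/f libraries, for mt-Rnr1, mt-Rnr2, mt-Nd4, mt-Nd5, mt-Nd6 and mt-Cytb Gata2 KO is higher on all 4 lines but the genotypes overlap, and the replicate 4 libraries (diamonds) are lowest for both rRNAs.

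The rRNA rows were mt-Rnr1, the 12S rRNA of the small ribosomal subunit, and mt-Rnr2, the 16S rRNA of the large subunit. As background, both lie at the start of the plus-strand precursor and carry very short A tails. mt-Rnr1 had 2298, 2324, 2311 and 1364 CPM in Gata2 f/f replicates 1 to 4 and 3209, 2863, 2548 and 1415 CPM in Gata2 KO. The Gata2 KO library was higher in each of the 4 pairs, but in both genotypes replicate 4 was far below the others, and the genotypes overlapped. The log2 change was 0.29 ± 0.27 (SE) with an edgeR adjusted p of 0.559, and with the block it was 0.26 ± 0.065 with an adjusted p of 0.00423. Without the block, leaving out single libraries moved the change of mt-Rnr1 from 0.11 (without Gata2 f/f replicate 4) to 0.51 (without Gata2 KO replicate 4). mt-Rnr2 had 4342, 3795, 4315 and 2855 CPM in Gata2 f/f and 6828, 5056, 4983 and 2878 CPM in Gata2 KO. Its replicate 4 libraries were again the lowest and differed from each other by 0.012 on the log2 scale, against 0.65 for replicate 1. The change was 0.39 ± 0.26 (edgeR adjusted p = 0.388), and 0.34 ± 0.076 with the block (adjusted p = 0.00195). Without the block, mt-Rnr2 ran from 0.17 without Gata2 KO replicate 1 to 0.59 without Gata2 KO replicate 4. On the second scale both rRNAs together came to 27.0%, 19.1%, 23.2% and 12.4% of the mitochondrial mRNA counts in Gata2 f/f and 27.1%, 23.2%, 19.4% and 12.02% in Gata2 KO. The means were 20.4% ± 6.24 and 20.4% ± 6.42 (SD, n = 4 each), and 2 pairs were higher and 2 lower in Gata2 KO.

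Complex I, the NADH dehydrogenase at the entry of the chain, has 7 mitochondrial subunits. Their rows held 338273 counts, 32.6% of all mitochondrial counts. mt-Nd5 encodes a subunit of the membrane arm and had 1512, 2263, 1914 and 2754 CPM in Gata2 f/f replicates 1 to 4 and 2439.6, 2444, 2691 and 2936 CPM in Gata2 KO. Gata2 KO was higher in each pair while the genotypes overlapped through Gata2 f/f replicate 4. The log2 change was 0.34 ± 0.14 with an edgeR adjusted p of 0.154, and 0.0311 without Gata2 f/f replicate 4, where 10.8% of all rows passed as higher. With the block the change was 0.36 ± 0.079 (adjusted p = 0.00163).

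mt-Nd4, another membrane arm subunit, had 859, 1194, 1005 and 1444 CPM in Gata2 f/f and 1325, 1216, 1327 and 1519 CPM in Gata2 KO. Each pair was higher in Gata2 KO, with replicates 2 and 4 apart by only 0.026 and 0.073 on the log2 scale. The change was 0.28 ± 0.13 (edgeR adjusted p = 0.201), and 0.30 ± 0.078 with the block (adjusted p = 0.0065). Without Gata2 f/f replicate 4 the adjusted p for mt-Nd4 was 0.0471.

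mt-Nd6, the subunit encoded on the minus strand, had 555, 609, 571 and 705 CPM in Gata2 f/f and 649.7, 786, 725 and 789 CPM in Gata2 KO. It was higher in Gata2 KO in each pair, and Gata2 KO replicate 1 lay within the range of Gata2 f/f. The change was 0.29 ± 0.10 (edgeR adjusted p = 0.0812), and with the block the adjusted p was 0.00143.

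mt-Nd1 and mt-Nd2, the complex I genes that follow the rRNA genes, showed smaller differences. mt-Nd1 had 5247, 6034, 5314 and 6504 CPM in Gata2 f/f and 6894, 5696, 6319 and 6276 CPM in Gata2 KO, higher in 2 pairs and lower in 2. Its change was 0.15 ± 0.12 (edgeR adjusted p = 0.486). mt-Nd2 had 1979, 2354, 2262 and 2491 CPM in Gata2 f/f and 2691, 2382, 2447 and 2471 CPM in Gata2 KO, a change of 0.16 ± 0.11 (edgeR adjusted p = 0.387). Neither passed with the block, at adjusted p of 0.118 and 0.076. The other complex I rows were low: mt-Nd3 had 9.66, 8.07, 6.56 and 2.01 CPM in Gata2 f/f and 5.15, 7.41, 4.84 and 2.57 CPM in Gata2 KO, and was the 1 tested row with a negative change (-0.35 ± 0.52, edgeR adjusted p = 0.751). This change of mt-Nd3 was -0.0087 without Gata2 f/f replicate 1, -0.023 without Gata2 KO replicate 4 and -0.83 without Gata2 f/f replicate 4. mt-Nd4l had at most 4 counts in a library, under the filter, and its unfiltered change was 0.68 ± 0.94 (edgeR adjusted p = 0.735).

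Complex III has a single mitochondrial subunit, cytochrome b, encoded by mt-Cytb. This row had 3893, 4812, 4399 and 5351 CPM in Gata2 f/f replicates 1 to 4 and 5779, 4971, 5966 and 5839 CPM in Gata2 KO. Gata2 KO was higher in each of the 4 pairs, by 0.57, 0.047, 0.44 and 0.13 on the log2 scale, and replicate 2 of Gata2 KO lay below the highest Gata2 f/f library. The change was 0.31 ± 0.12 (edgeR adjusted p = 0.107), and with the block it was 0.31 ± 0.072 (adjusted p = 0.00241).

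Complex IV, the terminal oxidase, was represented almost wholly by mt-Co1, its catalytic subunit, which held 99.8% of the 402139 counts of the class. mt-Co1 had 10492, 14744, 13072 and 14714 CPM in Gata2 f/f replicates 1 to 4 and 17203, 16614, 19223 and 15843 CPM in Gata2 KO, or 13256 ± 2001 against 17221 ± 1446 (SD, n = 4 each). All Gata2 KO libraries were above all Gata2 f/f libraries. This held for 2 of the 14 tested rows, mt-Co1 and mt-Atp6, beside 10.8% of all rows tested. On CPM with TMM scaling it held for 4, with mt-Nd6 and mt-Cytb added, beside 11.6%. The pairs differed by 0.71, 0.17, 0.56 and 0.11 on the log2 scale. The change was 0.40 ± 0.13 (edgeR adjusted p = 0.0743), 0.40 ± 0.078 with the block (adjusted p = 0.00057) and 0.47 ± 0.14 without Gata2 KO replicate 4 (adjusted p = 0.0423, where 8.82% of all rows passed as higher).

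The other complex IV rows, mt-Co2 and mt-Co3, rest on 16 to 70 counts per library. mt-Co2, which encodes the subunit that takes electrons from cytochrome c, had 11.1, 13.7, 7.50 and 6.20 CPM in Gata2 f/f and 16.5, 16.2, 9.20 and 10.3 CPM in Gata2 KO, higher in each pair. Its change was 0.47 ± 0.33 (edgeR adjusted p = 0.421), and with the block the adjusted p was 0.0538. mt-Co3 had 24.2, 19.3, 15.0 and 9.31 CPM in Gata2 f/f and 26.8, 23.6, 12.1 and 11.2 CPM in Gata2 KO, a change of 0.12 ± 0.39 (edgeR adjusted p = 0.893). Leaving out single libraries turned the sign of this change for mt-Co3, from -0.18 to 0.40.

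Complex V, the ATP synthase, had 238 counts in all, 0.0230% of the mitochondrial counts. mt-Atp6, a subunit of the proton channel, had 7.25, 7.45, 7.96 and 4.01 CPM in Gata2 f/f and 11.8, 11.1, 8.96 and 9.62 CPM in Gata2 KO. The genotypes did not overlap, and the largest pair difference, 1.26 on the log2 scale, was that of replicate 4. The change was 0.70 ± 0.29 (edgeR adjusted p = 0.141), and 0.76 ± 0.24 with the block (adjusted p = 0.0189). Without both libraries numbered 4 it was 0.48 ± 0.28 (adjusted p = 0.247). mt-Atp8 had 2, 5, 0 and 4 counts in Gata2 f/f and 1, 1, 4 and 11 in Gata2 KO, under the filter, and an unfiltered change of 0.070 ± 0.69 (edgeR adjusted p = 0.951). Its count of 0 allows up to 1.41 CPM in that library.

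The tRNA rows held 3410 counts, 0.329% of the mitochondrial counts, and 96.7% of these belonged to mt-Tp, the proline tRNA. Of the 22 rows, 16 were at 0 in all 8 libraries. The 6 with counts were 5 of the 8 genes on the minus strand, with 3408 counts, and 1 of the 14 on the plus strand, mt-Tl1, with 2 counts. The next row after mt-Tp was mt-Tc, the cysteine tRNA, with 96 counts, followed by mt-Ta, the alanine tRNA, with 11. Both leading genes are shown with the anticodon in capitals. The triplet was given beforehand, and a search for a 7-base loop on a paired stem found only its position:
mt-Tp, chrM:15356-15422, minus strand: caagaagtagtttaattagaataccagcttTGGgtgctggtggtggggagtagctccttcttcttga
mt-Tc, chrM:5192-5257, minus strand: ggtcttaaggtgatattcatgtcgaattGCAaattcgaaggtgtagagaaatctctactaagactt

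Each of the 2 genes lies beside sequence without an annotated gene. mt-Tp is the last gene of the genome and borders the control region, as does mt-Tf, and mt-Tc is separated from mt-Tn by 32 bases, which as background hold the origin of light-strand replication. mt-Tf and mt-Tn were at 0. Every other tRNA gene lies within 5 bases of a gene on both sides. A tRNA of 67 bases is barely longer than a read, so whether the counts of mt-Tp come from the mature tRNA, a precursor or an RNA of the other strand cannot be told apart here. mt-Tp had 142, 148, 157 and 108 CPM in Gata2 f/f replicates 1 to 4 and 162, 144, 161 and 87.2 CPM in Gata2 KO. Replicate 4 was lowest in both genotypes, and the change was 0.016 ± 0.22 (edgeR adjusted p = 0.980). mt-Tc had 10.6, 3.10, 4.69 and 1.64 CPM in Gata2 f/f and 11.3, 3.71, 2.66 and 1.44 CPM in Gata2 KO, highest in replicate 1 and lowest in replicate 4 of both genotypes.

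Relative to the summed mitochondrial mRNA counts, no tested row passed the threshold between genotypes. This sum includes the tested row itself where that row is an mRNA, which shrinks the change of a row as large as mt-Co1. With the summed mitochondrial mRNA counts as library size, edgeR called 0 of 14 rows, and 0 had an unadjusted p under 0.05. With the block it also called 0, beside 41.9% of all rows tested. Without it 24.3% of all rows tested passed, 4.54% as higher and 19.8% as lower, and the median change of all rows moved from -0.011 to -0.32. With mt-Co1 left out of the sum, the change of mt-Co1 was 0.17 ± 0.16 (edgeR adjusted p = 0.481). With the whole sum the fitted changes were 0.089 ± 0.16 for mt-Co1 (edgeR adjusted p = 0.690), -0.17 ± 0.16 for mt-Nd1 (0.419), -0.16 ± 0.15 for mt-Nd2 (0.443), -0.0017 ± 0.15 for mt-Cytb (0.994) and -0.33 ± 0.21 for mt-Tp (0.254). The standard errors of these mRNA rows were nearly alike, at 0.15 to 0.16. Taken alone, they leave room for differences of the size fitted on the first scale. The shares of single libraries can be closer: mt-Cytb was at 15.0% to 15.8% in Gata2 f/f and 14.5% to 16.4% in Gata2 KO. mt-Nd3 passed as lower in fits without Gata2 f/f replicate 4 (-1.17, adjusted p = 0.0278) and without both libraries numbered 4 (-0.90, adjusted p = 0.0314), where 28.3% and 40.6% of all rows passed as lower. It has at most 20 counts in a library.

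Small shifts in the share of complex I, of complex IV and of the tRNA rows had the same direction in all same-numbered pairs. Complex I made up 41.3%, 38.9%, 38.7% and 40.9% of the mitochondrial mRNA counts in Gata2 f/f replicates 1 to 4 and 37.8%, 36.7%, 34.9% and 39.2% in Gata2 KO, lower in 4 of 4 pairs with overlap between genotypes (39.96% ± 1.34 against 37.1% ± 1.82, SD, n = 4 each). Complex IV made up 42.8%, 46.1%, 45.8% and 43.3% in Gata2 f/f and 46.6%, 48.7%, 49.7% and 44.4% in Gata2 KO, higher in 4 of 4 pairs with overlap between genotypes (44.5% ± 1.68 against 47.4% ± 2.35). Since these classes together hold most of the sum, a higher share of either goes with a lower share of the other. Complex III was at 15.5% ± 0.375 and 15.5% ± 0.741, higher in 2 pairs and lower in 2. Complex V and the rRNAs were likewise higher in 2 pairs and lower in 2. The tRNA rows, nearly all mt-Tp, came to 0.625%, 0.473%, 0.572% and 0.324% of the mitochondrial mRNA counts in Gata2 f/f and 0.474%, 0.434%, 0.424% and 0.250% in Gata2 KO, lower in 4 of 4 pairs with overlap.

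Within complex I, the lower share came from mt-Nd1 and mt-Nd2. mt-Nd1 made up 21.3%, 18.8%, 18.6% and 19.1% in Gata2 f/f and 18.6%, 16.7%, 16.3% and 17.6% in Gata2 KO. mt-Nd2 made up 8.05%, 7.34%, 7.92% and 7.33% in Gata2 f/f and 7.27%, 6.97%, 6.32% and 6.92% in Gata2 KO, and was the 1 tested row without overlap on this scale (21.3% of all rows had no overlap as lower). Both were lower in 4 of 4 pairs, as was mt-Tp, which makes 3 rows beside 46.3% of all rows tested. Higher in 4 of 4 pairs were mt-Co1 and mt-Nd5, beside 7.89% of all rows. mt-Nd5 made up 6.15%, 7.06%, 6.70% and 8.10% in Gata2 f/f and 6.59%, 7.15%, 6.95% and 8.22% in Gata2 KO, so that its pair differences were smaller than the spread between replicates.

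**Figure D3:**
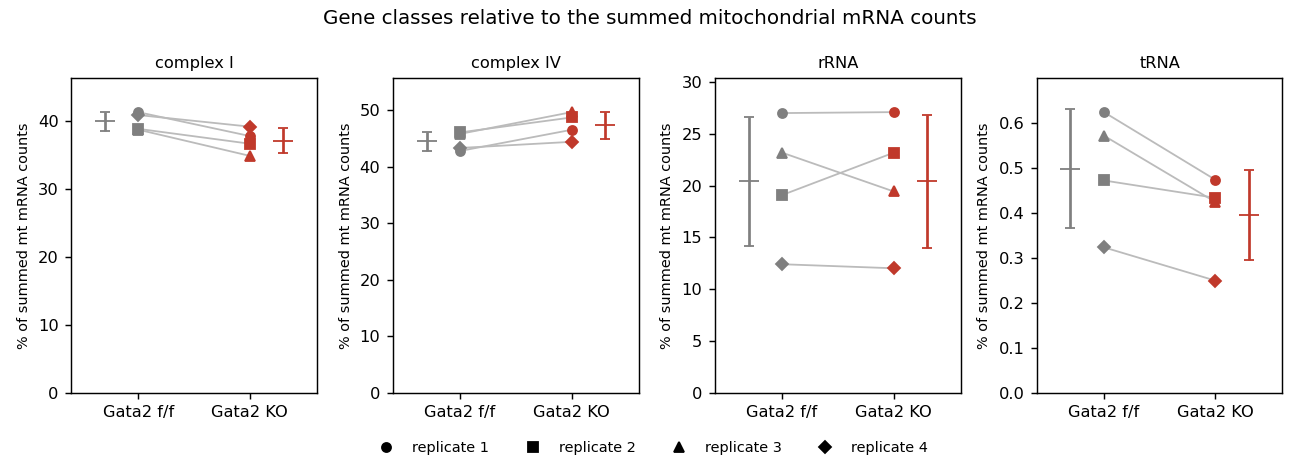
Counts of complex I, complex IV, rRNA and tRNA rows as a percentage of the summed mitochondrial mRNA counts of the same library (y axes from 0), with grey lines joining libraries of the same replicate number; bars are the mean ± SD of 4 libraries. Complex I is lower and complex IV higher in Gata2 KO on all 4 lines with overlapping genotypes, and the replicate 4 libraries are lowest for rRNA (12.4% and 12.02%) and tRNA (0.324% and 0.250%).

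**Figure D4:**
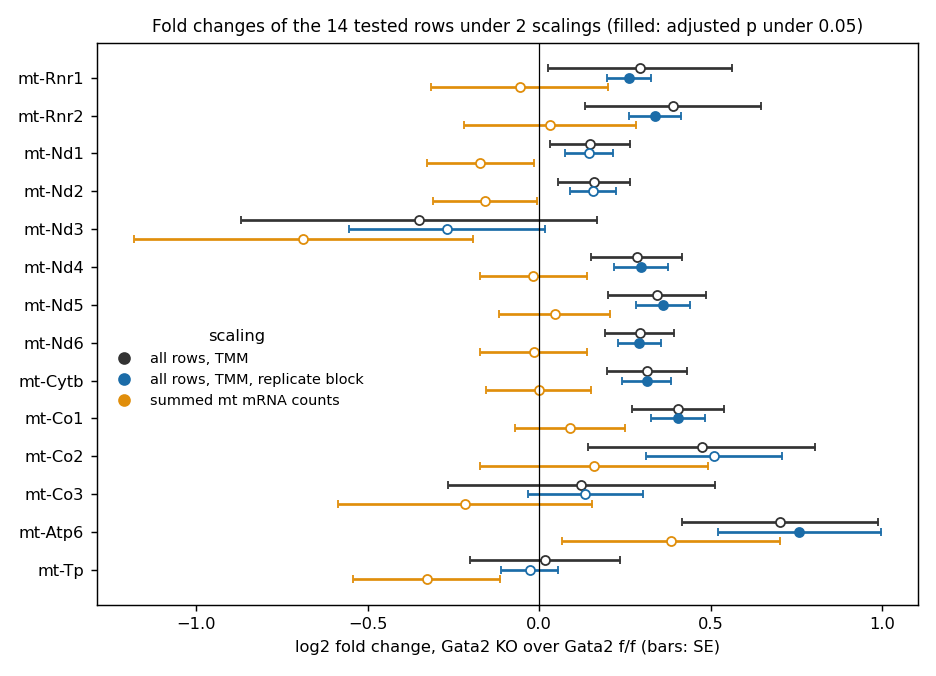
Log2 fold changes of Gata2 KO over Gata2 f/f for the 14 tested rows with SE bars, from the fit on all rows (black), the same with the replicate block (blue) and the fit relative to the summed mitochondrial mRNA counts (orange); filled points have an adjusted p under 0.05. Only points of the replicate block fit are filled, and the orange points of the 8 rows filled there lie between -0.057 and 0.38.

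The libraries numbered 4 stood apart in the makeup of their mitochondrial RNA as well as in depth. They are the deepest library of each genotype, with 5480086 and 6237748 counts. In CPM both were below the other 6 libraries for 5 of the 14 tested rows, mt-Rnr1, mt-Rnr2, mt-Co3, mt-Nd3 and mt-Tp, and above them for mt-Nd4 and mt-Nd5. Of all rows tested 8.77% were below and 24.5% above in the same way. For the rRNAs the gap was wide: mt-Rnr1 was at 1364 and 1415 CPM in the libraries numbered 4 and from 2298 to 3209 CPM in the others. The labels name no date or run for the libraries, and the part of depth or preparation in this was not tested.

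Without both libraries numbered 4, with 3 libraries left in each genotype, 7 of the 14 rows passed without a block, all higher in Gata2 KO: mt-Rnr1, mt-Rnr2, mt-Nd4, mt-Nd5, mt-Nd6, mt-Cytb and mt-Co1. In that fit 13.7% of all rows tested passed as higher. The change was 0.50 ± 0.11 for mt-Co1 (edgeR adjusted p = 0.00217), 0.44 ± 0.11 for mt-Nd5 (adjusted p = 0.00699), 0.38 ± 0.096 for mt-Cytb (adjusted p = 0.00828) and 0.46 ± 0.12 for mt-Rnr2 (adjusted p = 0.0080). The same 7 rows passed with the block in these 6 libraries, where 15.6% of all rows passed as higher.

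The nuclear genes that serve the mitochondrial genome could hardly be read from this table. Of 216 rows on 4 lists, 150 (69.4%) were under 1 CPM in the pooled counts, and 57 were tested. Among nuclear subunits of the respiratory chain, 2 of 19 tested rows were higher in Gata2 KO and 0 lower, and with the block 6 were higher and 3 lower. Among genes for copying and transcribing mitochondrial DNA, 0 of 7 were higher and 1 lower, and with the block 0 and 2. For mitochondrial RNA processing and decay, 1 of 11 was higher and 2 lower, and with the block 1 and 3. For the mitochondrial ribosome and translation, 0 of 20 passed, and with the block 1 was higher and 7 lower. Of all rows 8.97% passed as higher and 3.53% as lower without the block, and 18.8% and 16.7% with it. No member is named, because a row with counts may not hold the gene it is named for.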

How the data were processed

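Polyadenylated RNA of 8 mouse leukemia libraries was sequenced, and the authors deposited 1 table of counts: whole numbers for each Ensembl gene, without normalization. The submitters' processing notes name mm10, kallisto, HTSeq and DESeq2, without saying which made the counts. Columns were matched to samples by their descriptions. Of 49585 rows, 99.5% had a symbol. Coordinates and transcripts come from GENCODE M21 (GRCm38), and every 65-base window of a mitochondrial transcript was searched in all other transcripts on both strands. The sequences are GENCODE M21 transcripts aligned with Biopython 1.88.

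CPM used library totals. Counts were tested over the whole table with edgeR 4.0.16 in R 4.3.3 (quasi-likelihood test, TMM scaling, minimum count of 10 by group, Benjamini-Hochberg adjustment, threshold 0.05), and with the summed mitochondrial mRNA counts as library size without TMM. DESeq2 1.42.0, no filter, library totals, the total of rows outside the mitochondrial genome, other mitochondrial denominators, a replicate block and left-out libraries were alternatives. The denominators of rows with few shared windows (under 10%, with at least 100 counts in every library), and the mitochondrial scale without libraries numbered 4, were added after seeing the data.

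Deviations of same-numbered libraries from their genotype means correlated across genes at 0.213 to 0.804 (4 pairs), and those of differently numbered libraries at -0.474 to 0.182. Since every pair exceeded 0.1, same-numbered libraries were treated as pairs. Some differently numbered libraries exceeded 0.1 too, so this limit does not by itself set the pairs apart. The lowest same-numbered value, 0.213, was only a little above the highest other value, 0.182. The labels do not say what a number shares. Libraries of a genotype differed beyond sampling noise (chi-square over degrees of freedom 2.33 to 21.3). On simulated data of 6510 genes the edgeR script recovered 100% of changes of 2 and 94.95% of changes of 1 on the log2 scale, and called 5 unchanged genes. The simulation gave every gene the same spread and held no replicate structure. Changes as small as those of the mitochondrial rows were not simulated. All mRNA and rRNA rows were named, and tRNA rows with at least 10 counts. The rule for the members uses symbols only, but that rule, the gene lists and the other rules were chosen with earlier results of these data known. The 65-base search covers annotated transcripts only, since no genome sequence was used. Limits and intervals from counts cover counting error only.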

Additional observations from a re-analysis of the deposited data

Results flagged for a closer look

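In 68 groups of 4 libraries examined by Dixon's gap-to-range criterion, 2 values stood far from the rest of their genotype. Chance gives about 1 in 20 groups, so 2 in 68 are no more than chance gives. The groups share libraries and are not independent. In CPM, mt-Rnr1 was at 1364 in Gata2 f/f replicate 4, while the nearest of the other 3 libraries of that genotype had 2298. As a percentage of the mitochondrial mRNA counts, mt-Tp was at 0.244% in Gata2 KO replicate 4, while the nearest other library had 0.416%. Both are the low value of a library numbered 4.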

How the results depend on the processing

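The number of mitochondrial rows past the threshold was 0 with genotype alone, and also with library totals or the total of rows outside the mitochondrial genome. It was 2 with DESeq2, 2 without a filter, 8 with the replicate block, 7 without both libraries numbered 4 and 7 with the block in those 6 libraries, and 0 to 2 when single libraries were left out (2 without Gata2 f/f replicate 4, 1 without Gata2 KO replicate 4). The cause was not tested, beyond the lower errors of the block and, for mt-Rnr2, of the fit without a filter. The median of the tested mRNA rows stayed between 0.26 and 0.38 in every setting. Relative to the mitochondrial mRNA counts the number was 0, with the replicate block too, 1 without both libraries numbered 4 and 0 to 1 when single libraries were left out.

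Class shares turned from -0.11 (complex I), -0.0017 (complex III) and 0.089 (complex IV) on the log2 scale to 0.18, 0.29 and 0.38 with the library total as denominator, by the larger mitochondrial part of the Gata2 KO libraries. Of single rows, mt-Tp, at 0.016, was at -0.0056 with library totals and -0.027 with the replicate block. Relative to the mitochondrial mRNA counts, mt-Rnr1, mt-Nd4, mt-Nd6 and mt-Cytb, each between -0.057 and -0.0017, came to 0.027, 0.057, 0.062 and 0.074 without mt-Co1 in the sum, to 0.031, 0.061, 0.066 and 0.078 with rows of few shared windows as the sum, and to 0.026, 0.063, 0.058 and 0.078 with that sum and the replicate block. mt-Co2 was at -0.042 without both libraries numbered 4. Leaving out single libraries moved mt-Co3 from -0.18 to 0.40 and mt-Tp from -0.13 to 0.22, and on the mitochondrial scale mt-Rnr1 from -0.26 to 0.13, mt-Rnr2 from -0.15 to 0.21, mt-Co2 from -0.12 to 0.36, mt-Co3 from -0.53 to 0.14, mt-Nd4 from -0.090 to 0.050, mt-Nd5 from -0.023 to 0.12, mt-Nd6 from -0.081 to 0.048 and mt-Cytb from -0.029 to 0.027. None of these signs was past the threshold. Without a change of sign, leaving out single libraries moved mt-Rnr1 from 0.11 to 0.51, mt-Rnr2 from 0.17 to 0.59, mt-Nd1 from 0.079 to 0.19, mt-Nd2 from 0.10 to 0.19, mt-Nd3 from -0.83 to -0.0087, mt-Co2 from 0.21 to 0.67 and mt-Atp6 from 0.40 to 0.81 on the scale of all rows. Depth limits mt-Nd4l, mt-Atp8, mt-Tc and the other low tRNA rows, which did not pass the filter on all 8 libraries. Without the filter the changes of mt-Nd4l, mt-Atp8 and mt-Tc had standard errors of 0.94, 0.69 and 0.43 on the log2 scale.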
